A study of Mus musculus with 2 samples.

Results

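A cluster of miRNA genes lies inside Clcn5 on the X chromosome of the mouse: Mir532, Mir188, Mir362, Mir501 and Mir500, given here in the order of transcription. They were chosen by position, as the genes of the deposited count tables whose identifiers map to this intronic cluster, and they are 5 of the 1973 miRNA genes counted. The data are microRNA sequencing of total RNA from whole limbs of B6NCrl embryos, healthy and of both sexes pooled, at embryonic day 13.5. The samples form 1 group of 2 biological replicates, separate tissue samples under the same donor label, so no condition is compared with another and the spread between them may be in part technical. The labels do not say how many embryos went into a sample, and whole limbs mix many cell types, so the values are averages over them, and more cells of a type cannot be told apart from more RNA per cell.

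A miRNA gene is transcribed as part of a longer RNA. The fold-back hairpin in that RNA is cut out and then trimmed to a duplex, and either strand of it, the 5p or the 3p arm, can enter an Argonaute protein and guide it to matching messenger RNAs. Pairing rests mainly on the seed, bases 2 to 8 of the arm, so miRNAs with the same seed can share targets. Intronic miRNAs are commonly made from the transcript of their host. Clcn5, the host here, encodes a chloride and proton exchanger of endosomes, best known from the kidney, where its loss causes Dent disease. Of the cluster's products, miR-188 is known from marrow stromal cells, in the choice between bone and fat, and miR-501 from muscle progenitors.

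By the arms compared, the 5 hairpins fall into 2 sequence groups, of which that of Mir532 and Mir188 rests on 3p arms alone. The RefSeq table (GRCm38.p6) matched 5 of 5 hairpins and held 9 of their mature arms. It had no entry for the 5p arm of Mir532, so that arm and its seed were not compared. The 9 arms are printed below from 5′ to 3′ with the seed in capitals, because the seeds show which members could act on the same messages.
miR-362-5p: aAUCCUUGgaaccuaggugugaau
miR-500-5p: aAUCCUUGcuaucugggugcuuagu
miR-501-5p: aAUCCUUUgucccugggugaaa
miR-188-5p: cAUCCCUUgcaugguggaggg
miR-501-3p: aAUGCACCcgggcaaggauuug
miR-500-3p: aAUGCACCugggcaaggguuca
miR-362-3p: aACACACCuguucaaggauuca
miR-532-3p: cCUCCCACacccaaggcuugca
miR-188-3p: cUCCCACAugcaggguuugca

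Mir362, Mir501 and Mir500 resembled each other on both arms. miR-362-5p and miR-500-5p had the same seed, AUCCUUG, and no other mature miRNA among the 1738 in the table had it. miR-501-5p was identical to miR-500-5p before position 8, the last base of the seed, where the first difference was U8G (positions counted from 1 at the 5′ end, the first-named miRNA's base first). miR-501-3p and miR-500-3p shared the seed AUGCACC, again with no other miRNA in the table. Over 22 bases these 3p arms were identical at 18 and differed by C9U, A18G, U21C and G22A. miR-362-3p was identical to miR-500-3p at 17 of 22 bases, but C3U and A4G lie in the seed, so its seed differed.

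Mir532 and Mir188 made up the other group. Read from the same first base, miR-532-3p and miR-188-3p were identical at only 6 of 21 positions. With 1 base of miR-532-3p skipped, they were identical at 17 of 21 positions. Their seeds, CUCCCAC and UCCCACA, are thus nearly the same letters read 1 base apart. Between the groups no pair of printed same-side arms was identical at more than 55.0% of positions in any register within 3 bases.

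Outside the cluster, seeds of the 9 printed arms were shared in 2 cases. The seed of miR-362-3p, ACACACC, also occurred in miR-329-3p, whose gene Mir329 lies on chromosome 12, and the seed of miR-188-5p occurred in miR-7061-3p. The levels of Mir329 were 199 and 241 CPM in replicates 1 and 2, on the scale explained further on, against 170 and 128 CPM for Mir362. Mir329 was higher in both libraries, but these gene levels sum both arms and do not rank the arms with the shared seed.

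The hairpins of Mir501 and Mir500 are shown next, with their mature arms in capitals, because these 2 genes are the closest copies in the cluster and bear on whether reads could be assigned to the right gene.
Mir501: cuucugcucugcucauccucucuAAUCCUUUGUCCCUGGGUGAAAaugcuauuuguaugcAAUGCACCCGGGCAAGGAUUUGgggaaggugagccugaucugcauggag
Mir500: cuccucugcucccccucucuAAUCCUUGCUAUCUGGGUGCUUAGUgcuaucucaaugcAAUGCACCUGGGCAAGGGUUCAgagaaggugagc

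The longest stretch that the hairpins of Mir501 and Mir500 had in common was 14 bases, CCUCUCUAAUCCUU, which runs from the flank into the 5p arm. For Mir532 and Mir188 it was 10 bases, and for Mir362 with either Mir501 or Mir500 it was 8. With any other annotated miRNA gene no member shared more than 12 identical bases. The tables leave out reads with more than 1 mapping place, which were 30.8% and 29.5% of all reads in replicates 1 and 2. No member shares 18 or more bases with another annotated miRNA gene; copies elsewhere in the genome were not searched.

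On GRCm38, the build of the files (mm10), the cluster covers 10815 bases of the X chromosome, from 7237683 to 7248497 on the minus strand. Mir532 lies at 7248402 to 7248497, Mir188 at 7247989 to 7248056, Mir362 at 7241982 to 7242046, Mir501 at 7241243 to 7241351 and Mir500 at 7237683 to 7237774. All of them sit in the same intron of Clcn5, 103648 bases long, which is intron 3 of the protein-coding model with 15 exons. Of the 5 annotated Clcn5 models 3 contain this intron, and the other 2 begin downstream of the cluster. Mir532 starts 68161 bases into the intron, and Mir500 ends 24672 bases before the next exon. The gaps are uneven. Mir532 and Mir188 are 345 bases apart and Mir362 and Mir501 630 bases apart, while 5942 bases separate Mir188 from Mir362 and 3468 bases separate Mir501 from Mir500. No other annotated miRNA gene lies within Clcn5, or within 50 kb of a member on that strand.

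The hairpins were ordinary in composition. GC content ran from 46.2% in Mir362 to 55.9% in Mir188, around the median of 51.7% over 1005 hairpins in the table. The predicted minimum free energy per base ran from -0.455 kcal/mol in Mir500 to -0.346 kcal/mol in Mir532, against a median of -0.406 kcal/mol. The most abundant member, Mir532, thus had the weakest predicted fold per base of the 5. Mir188, next in level, and Mir362, the lowest in level, lay close together at -0.424 and -0.438 kcal/mol. A link between fold and level was not tested.

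Sense reads in miRNA genes totalled 5927321 in replicate 1 and 6003632 in replicate 2, and levels are given as CPM, a gene's sense counts scaled so that each of these totals becomes 1000000. For a gene with no reads the limits were 0.506 and 0.4997 CPM, from counting error alone. Limb and tissue markers were present: Mir196b of the Hox clusters lay at 75238 CPM, cartilage Mir140 at 46627 CPM, muscle Mir206 at 3841 CPM, endothelial Mir126a at 20233 CPM and epithelial Mir203 at 8388 CPM. Each was the highest of its list, and Mir126a the only gene of its own. The 4 muscle genes had a median of only 91.0 CPM and a lowest level of 75.3 CPM. The lowest levels were 14101 CPM in the Hox list, 2020 CPM for cartilage and 6918 CPM for epithelium. Of 3 blood markers 3 were detected, summing to 443 to 445 CPM, and of 6 kidney and liver markers 4 were detected, led by Mir204 at 339 CPM and Mir192 at 83.9 CPM and summing to 528 to 547 CPM. The heart marker Mir208a lay at 6.78 CPM. Which of these cell types the cluster's reads came from was not tested.

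All 5 members were detected, meaning at least 10 sense counts in each library, against 18.9% of all 1973 counted genes and 35.0% of the 120 on the X chromosome. All 5 also had a mean of at least 100 CPM, which 9.63% of all genes reached. Together they held 41541 counts in replicate 1 and 40759 in replicate 2. That is 0.701% of the sense counts in replicate 1 (exact 95% interval 0.694 to 0.708) and 0.679% in replicate 2 (0.672 to 0.686), or 0.690% ± 0.016 (SD, n = 2). No antisense read fell on any member, whereas 3.29% of genes had at least 1.

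Mir532, the first hairpin of the cluster, had the highest level. It gave 20370 counts in replicate 1 and 18626 in replicate 2, which is 3437 and 3102 CPM. The mean was 3270 ± 236 CPM (SD, n = 2), rank 51 of all counted genes and rank 4 on the X chromosome.

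Mir188, next along the transcript, gave 13679 and 14999 counts, or 2308 and 2498 CPM. Its mean of 2403 ± 135 CPM placed it at rank 64, and 7 on the X chromosome. Mir532 was lower in replicate 2 and Mir188 was higher there, so their levels lay closer together in replicate 2 than in replicate 1, without overlapping.

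After the long gap the levels were lower. Mir362 had the lowest level of the 5, with 1009 and 771 counts, or 170 and 128 CPM, and a mean of 149 ± 29.6 CPM (SD, n = 2). It ranked 168 of all genes and 22 on the X chromosome. Its libraries also differed most in relative terms, with an SD that was 19.8% of the mean.

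Mir501, only 630 bases further, gave 4392 and 4493 counts, or 741 and 748 CPM. Its mean was 745 ± 5.2 CPM, rank 107, and its SD of 0.703% of the mean was the smallest of the 5. Mir500, the last hairpin, gave 2091 and 1870 counts, or 353 and 311 CPM. Its mean was 332 ± 29.2 CPM, rank 133, between Mir501 and Mir362.

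**Figure D1:**
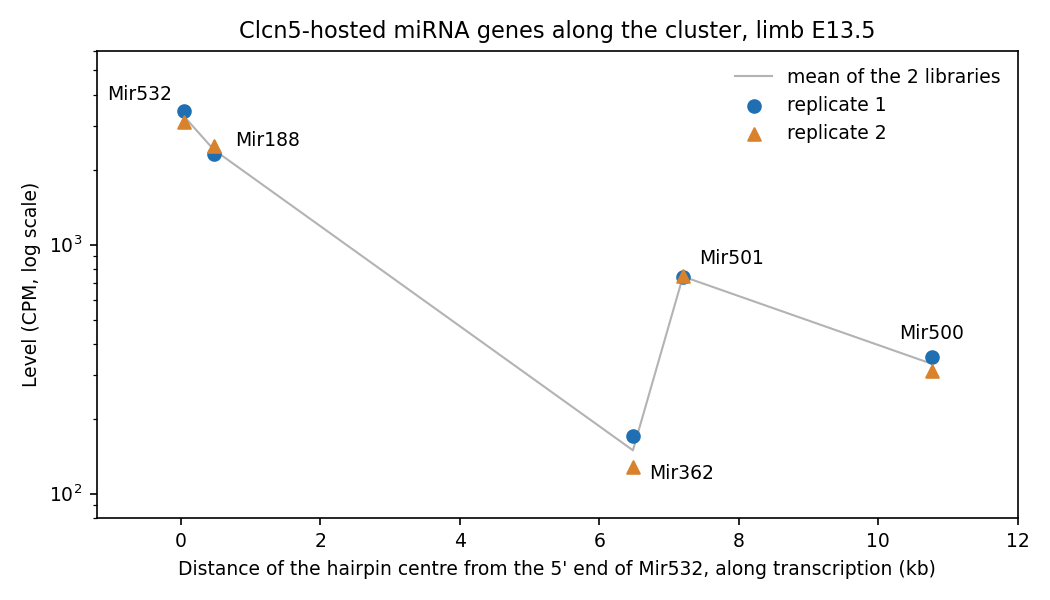
Level of each Clcn5-hosted gene (CPM, log scale) against the distance of its hairpin from the 5′ end of Mir532 in kb, with circles for replicate 1, triangles for replicate 2 and a line through the means. The level falls from Mir532 and Mir188 to Mir362 at 149 CPM and is higher again at Mir501 and Mir500.

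From high to low the order was Mir532, Mir188, Mir501, Mir500 and Mir362, in the mean and in each library. No neighbours in this order overlapped between libraries. In every case the difference of the means exceeded the sum of the SDs, for example 866 against 371 CPM for Mir532 and Mir188. With 2 libraries no two-sided exact p below 0.5 can be reached, so no test of these differences was made. Levels of different genes also carry how well each miRNA was captured in the library, which was not tested.

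The order along the chromosome was therefore not simply a decline. Mir532 over Mir188 was 0.57 on the log2 scale in replicate 1 and 0.31 in replicate 2, a mean of 0.44 ± 0.19 (SD, n = 2). Mir188 over Mir362 was the largest step, 3.76 and 4.28, or 16.2-fold in the mean. Mir362 over Mir501 went the other way, at -2.12 and -2.54, so that Mir501 was 5.03-fold higher than its close upstream neighbour. Mir501 over Mir500 was 1.07 and 1.26, or 2.25-fold. Each step had the same sign in both libraries.

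The steps were also computed per length, a choice made after the data were seen. A library of such short RNAs reads a miRNA whole, so counts were not divided by hairpin length. Per base of hairpin, Mir532 lay at 34.1 ± 2.5 CPM and Mir188 at 35.3 ± 2.0 CPM (SD, n = 2). Mir532 over Mir188 was then 0.077 on the log2 scale in replicate 1 and -0.185 in replicate 2, so their order was not resolved on that scale. The later steps kept their sign and became smaller in size. On the log2 scale the mean went from 4.02 to 3.96 for Mir188 over Mir362, from -2.33 to -1.59 for Mir362 over Mir501 and from 1.17 to 0.92 for Mir501 over Mir500. Per base, the downstream genes lay at 6.83 CPM for Mir501, 3.61 CPM for Mir500 and 2.30 CPM for Mir362.

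The first 2 hairpins supplied most of the cluster's reads. Mir532 and Mir188 together held 82.0% of the cluster's counts in replicate 1 (exact 95% interval 81.6 to 82.3) and 82.5% in replicate 2 (82.1 to 82.9). The sequence-related trio of Mir362, Mir501 and Mir500 held the other 18.0% and 17.5%. The split between the groups thus moved by less than 1 percentage point between libraries.

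Mir532 and Mir188 each moved more, in opposite directions. Mir532 held 49.0% of the cluster in replicate 1 (48.6 to 49.5) and 45.7% in replicate 2 (45.2 to 46.2). Mir188 held 32.9% (32.5 to 33.4) and 36.8% (36.3 to 37.3). Mir500 held 5.03% (4.83 to 5.25) and 4.59% (4.39 to 4.80), and Mir362 2.43% (2.28 to 2.58) and 1.89% (1.76 to 2.03). For these 4 genes the intervals of the libraries did not overlap, so the shares differed beyond counting error, with each read taken as independent. Mir501 held 10.6% (10.3 to 10.9) and 11.0% (10.7 to 11.3), with intervals that overlapped.

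**Figure D2:**
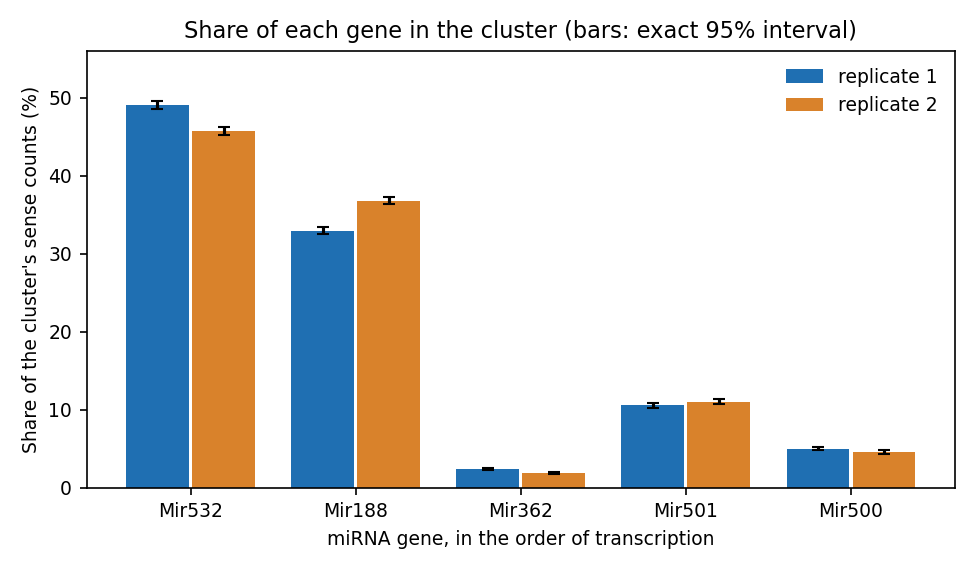
Share of each gene in the cluster's sense counts (%), in the order of transcription, with a bar for each library and exact 95% binomial intervals as error bars. Mir532 falls from 49.0% in replicate 1 to 45.7% in replicate 2 while Mir188 goes from 32.9% to 36.8%.

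The counts are per hairpin, so the arms printed above are summed in them. The level of a shared seed, such as AUGCACC of miR-501-3p and miR-500-3p, therefore cannot be read from these tables. The genes that carry that seed had summed levels of 1094 and 1060 CPM in replicates 1 and 2 over both arms, which bounds from above what these 2 genes contribute to it as counted.

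Between the libraries, log2 ratios of replicate 2 over replicate 1 were small. They were -0.15 for Mir532, 0.11 for Mir188, -0.41 for Mir362, 0.01 for Mir501 and -0.18 for Mir500. In the exact binomial test over 444 genes with Benjamini-Hochberg adjustment, 0 of 5 members passed an adjusted p of 0.05 together with an absolute log2 ratio of 1, against 3.38% of genes tested and 0 of the 190 genes of at least 100 CPM, so the count says little at this depth. With TMM sizes from edgeR or size factors from DESeq2 the count was also 0. The DESeq2 factors were 1 in both libraries, so they left the counts unscaled. No member's log2 ratio came near 1 with any of these sizes, so the 0 could not change. By the main sizes, 4 of 5 members had an unadjusted p under 0.05 in the exact binomial test, against 45.3% of genes tested.

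Without the minimum ratio, 4 of 5 members passed the adjusted p, 1 higher and 3 lower in replicate 2. The background was 40.3% of all genes tested, 18.2% higher and 22.1% lower, and 72.1% of genes of at least 100 CPM, so the members' count lies near that of genes of like depth. The adjusted p by the exact test was 4.7e-23 for Mir532, 1.22e-10 for Mir188, 1.85e-08 for Mir362 and 0.000363 for Mir500, and 0.792 for Mir501. As a test of 2 libraries it takes in sampling of reads alone and says nothing of a condition. Mir362 had a larger absolute log2 ratio than 93.2% of the 190 genes of at least 100 CPM, Mir500 than 67.9%, Mir532 than 55.8%, Mir188 than 48.4% and Mir501 than 9.47%. Mir362, at 149 CPM, lies near the low end of these genes, whose median was 1057 CPM. Its place is thus set mostly against genes counted more deeply.

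**Figure D3:**
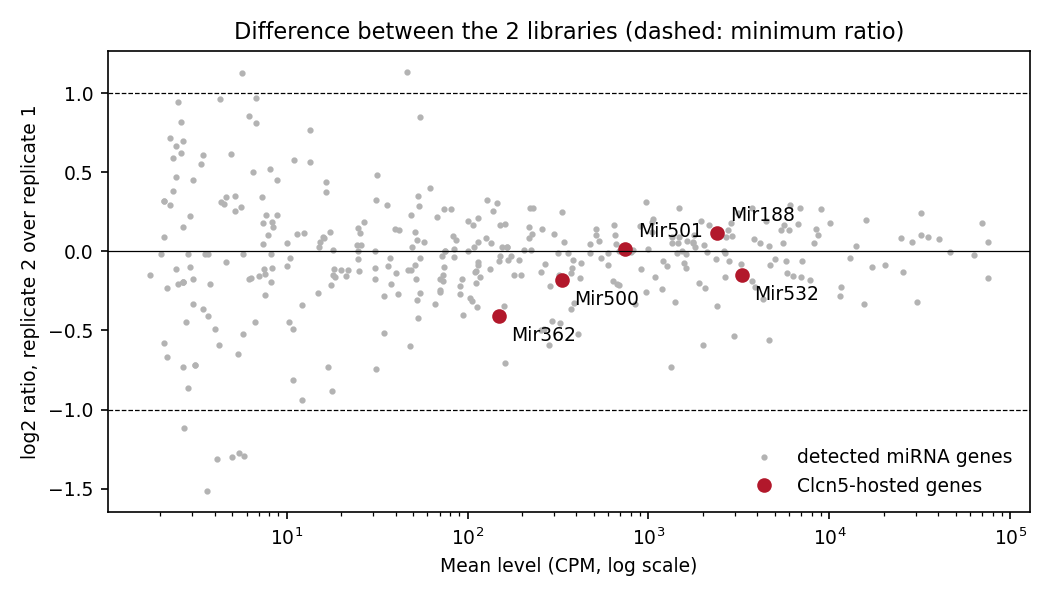
Log2 ratio of replicate 2 over replicate 1 against the mean level (CPM, log scale) for detected miRNA genes in grey and the 5 Clcn5-hosted genes in red. The members lie between -0.41 and 0.11, inside the dashed lines at an absolute log2 ratio of 1.

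Over all detected genes the members spread across the upper and middle ranks, as the plot of ranked levels shows. Mir532 lay above 86.3% of the 372 detected genes, Mir188 above 82.8%, Mir501 above 71.2%, Mir500 above 64.2% and Mir362 above 54.8%. The median level of the 5 was 745 CPM, against 106 CPM over detected genes and 1057 CPM over genes of at least 100 CPM.

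**Figure D4:**
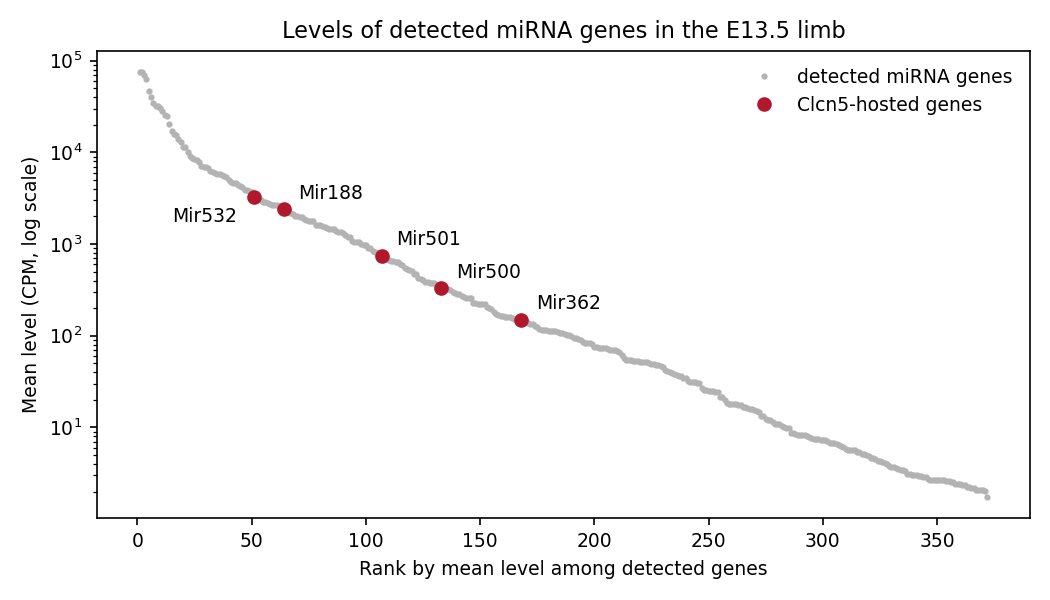
Mean level (CPM, log scale) of the 372 detected miRNA genes against their rank, with the 5 Clcn5-hosted genes in red. Mir532 is at rank 51 and Mir362 at rank 168.

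On the X chromosome the cluster held 6.85% of the sense counts in replicate 1 and 6.06% in replicate 2. The X total includes Mir322, at 65323 and 73813 CPM, while the cluster's share of all sense counts was 0.701% and 0.679%. Among 16 counted genes of a list of other hosted X-linked miRNA genes, 11 were detected, with a median of 198 CPM over the 16. The highest were Mir652 of Tmem164, at 9045 ± 1178 CPM, and Mir98 of Huwe1, at 3145 ± 373 CPM. Mir532 lay above Mir98 in replicate 1 (3437 against 2881 CPM) and below it in replicate 2 (3102 against 3409 CPM), so their order was not resolved. The 5 listed genes hosted by Htr2c, a serotonin receptor gene of nerve cells, ranged from 0 counts in both libraries for Mir1912 to 26.9 CPM for Mir1298, below the lowest Clcn5-hosted gene. A second list held miRNA genes inside other protein-coding hosts, 8 of its 12 counted genes in introns and 4 overlapping an annotated exon. All 12 were detected, with a median of 5805 CPM. Its highest were Mir335 of Mest, at 75047 CPM, and Mir140, which overlaps an annotated exon of Wwp2, at 46627 CPM.

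The cluster was set beside the other clusters of the series, taken as runs of genes on the same strand with gaps of at most 10 kb and at least 4 detected genes. There were 8 such clusters. In the Clcn5 cluster the highest gene was 21.9-fold above the lowest, the second smallest span of the 8. Only the Mir302a cluster had a smaller one, at 7.64-fold over 4 detected genes. The other 6 ran from 46.9-fold in the Mir106a cluster to 4681-fold in the Mir487b cluster. Larger clusters have more genes to differ, and the Mir487b cluster had 31 detected, so spans are a description and not a like-for-like comparison. The 6 wider clusters also hold detected genes that share 22 or more bases with another miRNA gene and can lose reads to it, which the Clcn5 and Mir302a clusters do not. Without such genes, an alternative chosen after the data were seen, the Mir106a cluster spanned 12.8-fold, and the Clcn5 cluster had the third smallest span of 7, as no gene of the Mir467e cluster was left. The lowest gene of the Clcn5 cluster, at 149 CPM, was the highest of the 8 lowest genes, the next being Mir450-2 at 15.8 CPM. That place too was lost without genes sharing 22 or more bases, as the lowest gene of the Mir322 cluster was then Mir450b at 332 CPM. The share of the leading gene, 47.4% ± 2.4 (SD, n = 2) for Mir532, lay between 24.2% in the Mir487b cluster and 85.8% in the Mir322 cluster.

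**Figure D5:**
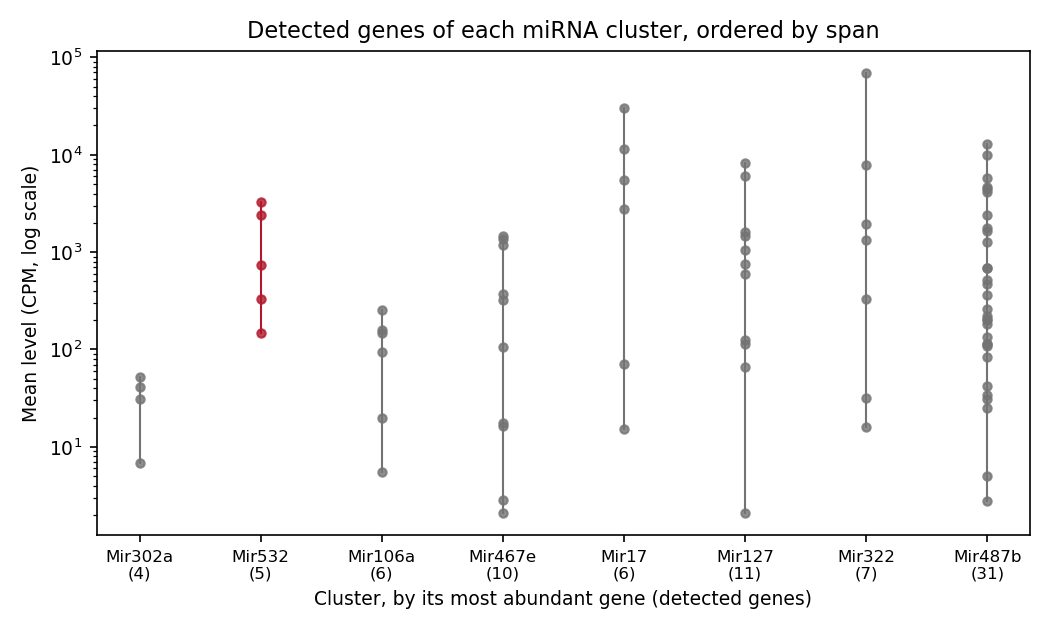
Mean level (CPM, log scale) of each detected gene in the 8 clusters with at least 4 detected genes, named by the most abundant gene with the number detected in brackets and ordered by span. The Clcn5 cluster, in red, spans 149 to 3270 CPM.

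For each member, the genes outside the cluster with the most similar pair of levels were found by distance over log2(CPM + 0.5) in the 2 libraries. Mir532 was nearest to Mir30d (3352 and 3166 CPM) and Mir181d (3994 and 3507 CPM). Mir188 was nearest to Mir872, in Ift74 (2364 and 2554 CPM), and Mir484 (2393 and 2312 CPM). Mir501 was nearest to Mir540 (754 and 752 CPM) and Mir96 (803 and 799 CPM). Mir500 was nearest to Mir669l, in Sfmbt2 (338 and 305 CPM), and Mir223 (319 and 317 CPM). Mir669l shares 22 or more bases with another miRNA gene, so its level is uncertain.

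Mir362 was nearest to Mir363, another gene of the X chromosome (170 and 126 CPM), and to Mir874 (177 and 139 CPM). Both were lower in replicate 2, as Mir362 was. With 2 libraries such likeness describes level and says little about pattern.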

How the data were processed

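MicroRNA libraries of whole E13.5 limb, 2 replicates of 1 group, were compared with each other and across genes. The members and lists were chosen with earlier results of these data known. The authors deposited whole-number read counts per miRNA gene, with 3 strand columns after 4 leading lines that name no gene. The columns carry no header. They were read as either strand, sense and antisense from their layout, in which the first equals the sum of the others in all 1973 genes. The labels give mm10 as the build, and a note deposited with the counts gives GENCODE M4. Aligner and counter: not given in the sources used here. All reads numbered 12407140 and 12657170, of which unmapped reads were 17.2% and 18.6%. Library sizes leave out the leading lines.

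Symbols, coordinates and hosts came from GENCODE M21 on GRCm38, and sequences from RefSeq (GRCm38.p6). Of the counted genes, 1894 matched a symbol. CPM was computed from sense counts. Log2 ratios used 0.5 added counts. Genes with at least 10 summed counts entered a two-sided exact binomial test between libraries (scipy 1.17.1), Benjamini-Hochberg adjusted. Simulated data on which this test was tried had counting error only, the spread that the test assumes. That trial therefore says nothing of other variation between libraries. TMM sizes came from edgeR 4.0.16, size factors from DESeq2 1.42.0, and folds from RNAfold 2.7.2. Folding and seed values describe sequence only. Intervals are exact Clopper-Pearson within a library and cover counting error only. No molecular identifiers are recorded, so reads copied from the same molecule cannot be told apart. The intervals take each read as independent and may be too narrow.

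The text names the 5 members, other miRNA genes in or near Clcn5, the 2 genes nearest in level to each member, and up to 2 detected genes of each list with the highest mean. Genes of clusters, seed partners and the Htr2c genes were named after their values were seen. Listed Mir374c, Mir24-1, Mir3065 and Mir657 are not analysed here. Alternatives were other sizes, count minimums, pseudocounts, both strands, other denominators and each library alone.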

Additional observations from a re-analysis of the deposited data

How the results depend on the processing

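The number of members detected stayed at 5 with minimums of 5, 20 and 100 counts and with both strands counted. These settings could not change it, as the lowest member count was 771 and no member had antisense reads. The number that differed between libraries was 0 under every alternative size, strand and filter, and 4 without the minimum ratio, where the calls over all genes went from 15 to 179. Other sizes could not change the 0, as the largest member log2 ratio, that of Mir362, stayed between -0.417 and -0.388. The cluster's share of 0.690% was 0.328% of all reads, 1.38% without the 10 most abundant genes, 0.709% without genes sharing 22 or more bases and 0.668% with both strands, as the denominator changed. Leaving out each library gave 0.679% to 0.701% for that share and 45.7% to 49.0% for Mir532 in the cluster. The order of the 5 levels was the same in each library alone; other denominators scale all members alike and cannot change it. Per base of hairpin, an alternative added after the data were seen, Mir532 over Mir188 went to -0.054 ± 0.185 on the log2 scale (SD, n = 2). The hairpin of Mir188 is shorter. The sign differed between the libraries, so their order was not resolved on that scale. Mir362 over Mir501 went from -2.33 to -1.59. A ratio between libraries cannot be had without one of them. No paired analysis was possible because there is 1 group.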

Other observations

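Next neighbours within a cluster, both of at least 100 CPM, gave 4 pairs among the Clcn5-hosted genes and 49 elsewhere. The log2 ratio of such a pair moved between the libraries by a median of 0.34 in the Clcn5 cluster, from 0.19 for Mir501 and Mir500 to 0.52 for Mir188 and Mir362. Elsewhere the median was 0.14 and the highest 0.51. This comparison was chosen after the data were seen, neighbouring pairs overlap in a gene and so depend on each other, and Mir362, with 1009 and 771 counts, enters the 2 pairs that moved most. The median size of the ratio itself was 1.75 in the Clcn5 cluster and 2.35 elsewhere.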
